A study of Mus musculus with 8 samples.

Results

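The miRNAs described here are the 6 mature products of the miR-125, miR-99 and miR-100 hairpins that were listed by name: mmu-miR-125a-5p, mmu-miR-125a-3p, mmu-miR-125b-5p, mmu-miR-99a-5p, mmu-miR-99b-5p and mmu-miR-100-5p, written below without the prefix mmu for mouse. They were chosen by their names on the array, not by their values, and are 6 of 1881 mouse miRNAs measured. Plasma RNA came from female NMRI mice, an outbred laboratory stock, aged 3 months. IMB mice received imatinib, a tyrosine kinase inhibitor, by mouth at 100 mg/kg a day for 9 days. DOX mice received doxorubicin, an anthracycline that damages DNA, into the tail vein in saline at 3 mg/kg, in 4 doses given every other day. CTRL mice received solvents only, and the labels do not say which mouse got which solvent. Each array held RNA from plasma pooled from 3 mice, with 3 IMB pools, 3 DOX pools and 2 CTRL pools, so the spread between single mice within a pool is not seen.

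The members lie in 3 related gene clusters that each pair a miR-99 or miR-100 hairpin with a let-7 hairpin and a miR-125 hairpin. miR-125 is the vertebrate relative of lin-4, a regulator of developmental timing in the worm Caenorhabditis elegans, and in mouse blood it is known for its high level in haematopoietic stem cells. The miR-99 and miR-100 family is known for repressing the growth-control kinase mTOR. In plasma, circulating miRNAs come from many tissues and blood cells, and a change in the number of releasing cells cannot be told apart from a change in the RNA released per cell.

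The mature sequences are shown because they decide which members an array can tell apart and which share a seed, the bases 2 to 8 that pair with targets. All 6 were found in the RefSeq table (GRCm38.p6) and are on the plus strand. The seed is in capitals.
miR-125a-5p: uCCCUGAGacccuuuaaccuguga
miR-125b-5p: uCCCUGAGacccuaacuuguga
miR-125a-3p: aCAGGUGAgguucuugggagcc
miR-99a-5p: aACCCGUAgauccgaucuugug
miR-100-5p: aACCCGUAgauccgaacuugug
miR-99b-5p: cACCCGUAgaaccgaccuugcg

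miR-125a-5p and miR-125b-5p share the seed CCCUGAG, which 5 of 1679 mature mouse miRNAs in the table carry, and are identical over their first 13 bases. miR-99a-5p, miR-99b-5p and miR-100-5p share the seed ACCCGUA with no other miRNA of the table. Counted from the 5′ end, miR-99a-5p and miR-100-5p differ at 1 position of 22, U16A. miR-99b-5p differs from miR-99a-5p at 4 positions, A1C, U11A, U16C and U21C, with miR-99a-5p given first in each. Whether probes of such close relatives take up each other's RNA was not tested. miR-125a-3p, from the other arm of the miR-125a hairpin, has the seed CAGGUGA, found in 1 mature miRNA. The 68-base miR-125a hairpin at chr17:17830812-17830879 is shown because it is the only one here with both arms detected by the array, and its mature arms are in capitals.
Mir125a: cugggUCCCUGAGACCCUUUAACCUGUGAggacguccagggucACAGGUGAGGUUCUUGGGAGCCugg

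miR-99b-5p (chr17:17830194-17830215) and both miR-125a arms (chr17:17830817-17830840 for 5p and chr17:17830855-17830876 for 3p) lie in the tightest cluster, with Mirlet7e between them. The starts of Mir99b and Mir125a are 624 bases apart, inside the extent of Spaca6, a gene for a sperm membrane protein. miR-99a-5p (chr16:77598940-77598961) is in a cluster with Mirlet7c-1 at 0.7 kb and Mir125b-2 at 47.3 kb. miR-100-5p (chr9:41531437-41531458) is followed by Mirlet7a-2 at 5.3 kb and Mir125b-1 at 50.5 kb, all inside Mir100hg, a long non-coding RNA gene. miR-125b-5p is made from both of the wide clusters, at chr16:77646279-77646300 and chr9:41581940-41581961, and the array cannot say which hairpin a molecule came from. The map of the clusters shows this common order.

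**Figure D1:**
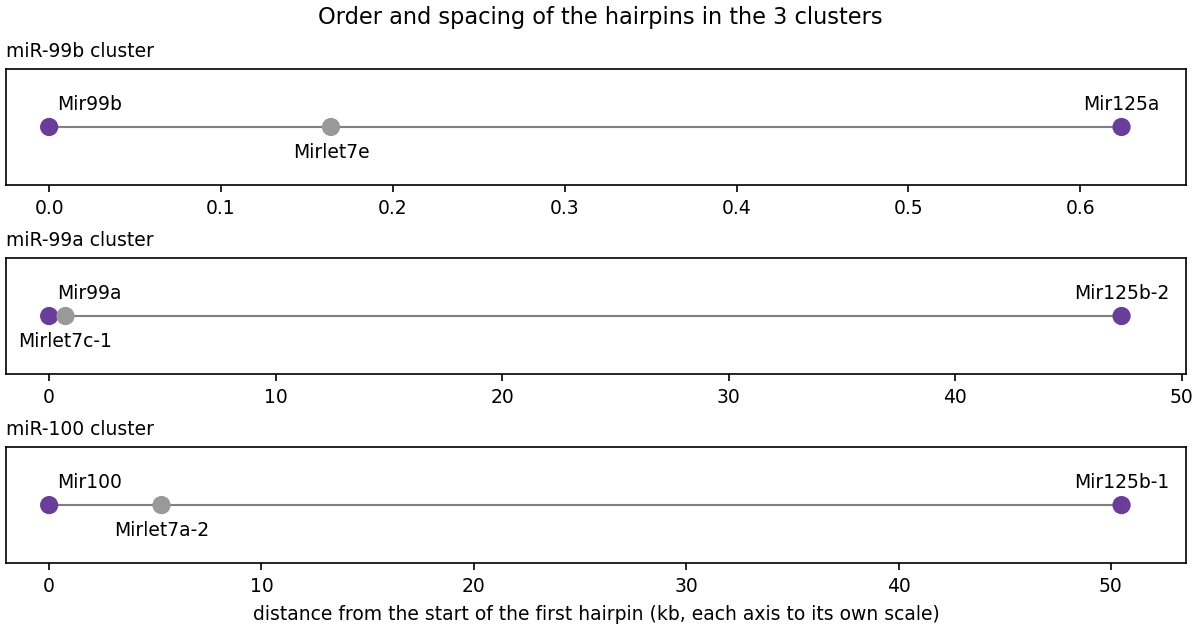
Each row is one cluster in GRCm38.p6, with hairpin starts plotted by distance in kb from the start of the first hairpin, and let-7 hairpins in grey. The miR-99b cluster spans 0.6 kb between its outer starts, the miR-99a cluster 47.3 kb and the miR-100 cluster 50.5 kb.

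Signals were scaled between arrays, and levels are the log2 of scaled signal, with a floor of 4.39 below which values have no order. Brightness before scaling was taken as the 75th percentile of the 454 probes that all 8 arrays detected. It ran from 196 to 425 in IMB pools, from 213 to 267 in DOX pools and from 300 to 349 in CTRL pools. IMB pool 1 was the dimmest of all arrays and IMB pool 2 the brightest. The red cell index, the log2 signal of miR-451a of red cells minus that of miR-23a-3p, was 3.90 to 4.45 in IMB pools, 2.68 to 3.15 in DOX pools and 3.18 to 3.84 in CTRL pools. Of 5 red cell miRNAs listed, 4 were detected on all arrays and miR-144-5p on 0, and their summed scaled signal was 31649 to 39978 in IMB pools, 17837 to 26859 in DOX pools and 22450 to 37368 in CTRL pools. Neither brightness nor red cell RNA was tested for its part in the members' values. All arrays are on 1 slide, with IMB pool 1, DOX pools 1 and 2 and CTRL pool 1 in row 1 and the others in row 2.

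Of the 6 members, 4 were detected on all 8 arrays: miR-125a-5p, miR-125a-3p, miR-125b-5p and miR-99a-5p. A miRNA counted as detected where over 50% of the kept spots of 1 of its probes were well above background. miR-100-5p was detected on 7 arrays and was not well above background in IMB pool 1, although the scanner software called it detected on all 8. miR-99b-5p was detected on 0 arrays by the first rule and by the software on 1, IMB pool 2, with a total gene signal of 3.56. So 5 members entered the tests, which covered 294 miRNAs, each detected in all pools of 1 group or more. No member had to be high in a single group to enter, except that miR-100-5p entered through the DOX and CTRL pools.

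**Figure D2:**
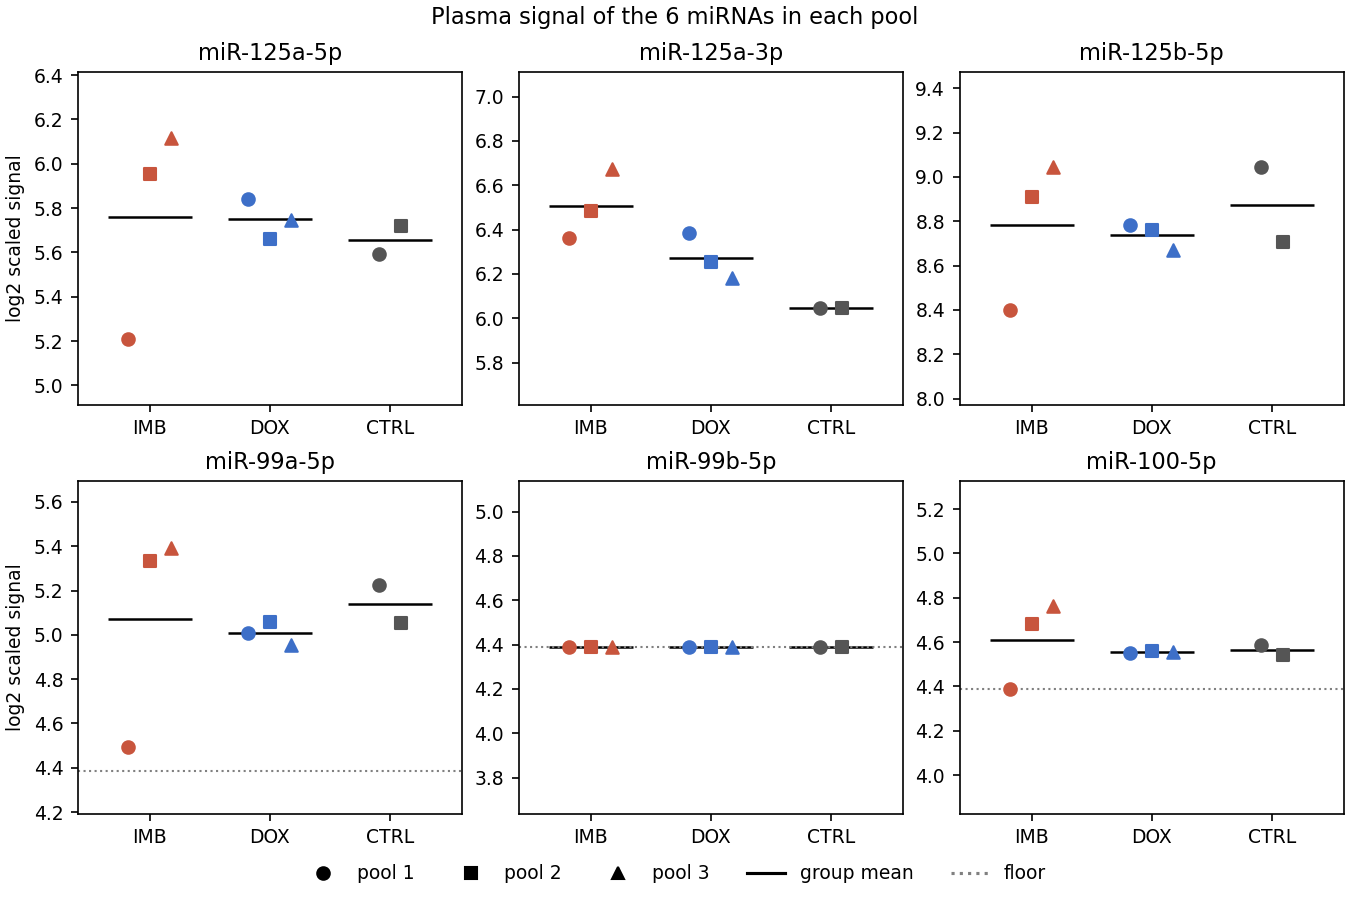
Each panel shows 1 miRNA, with the log2 scaled signal of each pool (circle for pool 1, square for pool 2, triangle for pool 3), the group mean as a bar and the floor of 4.39 as a dotted line where in range; all panels have axes of the same length. IMB pool 1 is the lowest point of miR-125a-5p, miR-125b-5p, miR-99a-5p and miR-100-5p but not of miR-125a-3p, where the CTRL pools are lowest.

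None of the 5 tested members passed the threshold in any comparison. Tests were made with limma on all 8 arrays, with Benjamini-Hochberg adjustment over the 294 miRNAs and a threshold of 0.05. In IMB against CTRL, 0 of 5 members passed, against 1.02% of all miRNAs tested, and the members' median difference was 0.05, against 0.01 for all tested. In DOX against CTRL, 0 of 5 passed, against 0.340%, and the median was -0.01, against 0. In IMB against DOX, 0 of 5 passed, against 1.02%, with a median of 0.06, against 0. At an unadjusted p under 0.05, 1 of 5 members passed in IMB against CTRL (7.82% of all tested), 0 in DOX against CTRL (8.50%) and 1 in IMB against DOX (10.9%); where 1 passed, it was miR-125a-3p. In IMB against CTRL, 0 members passed at this level with the 75th percentile over all probes, no scaling or the authors' deposited table. In DOX against CTRL, 1 passed with only the compared groups in the fit. In IMB against DOX the nominal pass of miR-125a-3p in limma was lost under all 15 alternatives, which gave 0 members. In the same comparison without IMB pool 1, 4 members passed at this unadjusted level, as did 80 of all 310 miRNAs then tested. Without DOX pool 1, 1 member passed, as did 33 of 295, and 0 members passed without any other IMB or DOX pool.

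miR-125a-3p, the arm whose seed no other mature mouse miRNA of the table shares, was the member furthest from the controls. Its level was 6.36, 6.48 and 6.67 in the IMB pools, 6.38, 6.26 and 6.18 in the DOX pools, and 6.05 and 6.05 in the CTRL pools. Every treated pool lay above both CTRL pools, while the IMB and DOX pools overlapped. It was the 1 member of 5 whose pools all lay above the controls in each comparison, as 10.9% of all tested miRNAs did for IMB against CTRL and 18.7% for DOX against CTRL. In IMB against DOX, 0 of 5 members and 6.80% of all tested miRNAs had every IMB pool above every DOX pool.

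The level of miR-125a-3p averaged 6.51 ± 0.16 (SD, n = 3) in IMB pools and 6.05 ± 0.000646 (SD, n = 2) in CTRL pools. The difference was 0.46 (SE 0.10, 95% interval 0.20 to 0.72), a fold of 1.38, with a limma adjusted p of 0.205. Its unadjusted p of 0.0050 was number 7 of 294 in order. With 2 control pools this close together, the SE of the fit comes mainly from the treated pools.

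In DOX pools miR-125a-3p averaged 6.27 ± 0.10 (SD, n = 3), and the difference from the CTRL pools was 0.23 (SE 0.10, 95% interval -0.03 to 0.49, limma adjusted p = 0.588). Both comparisons use the same CTRL pools. The direct difference of IMB minus DOX was 0.23 (SE 0.09, 95% interval 0.00312 to 0.463, limma adjusted p = 0.407), and 0.06 with normexp background correction (limma adjusted p = 0.925, range over its alternatives 0.0948 to 0.925). Over the alternatives and left-out pools, IMB minus CTRL was 0.31 to 0.54, with an adjusted p of 0.051 to 1. With no scaling between arrays, DOX minus CTRL was -0.19, where the median of all miRNAs tested was -0.32, so that relative to this median it was 0.13.

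The array carries 4 probes for miR-125a-3p, all detected on all arrays. For IMB minus CTRL they gave 0.44 to 0.48, and for DOX minus CTRL 0.17 to 0.29. The probes of a miRNA read the same RNA on the same array and are not replicates. Within slide row 1 (1 pool against 1) IMB minus CTRL was 0.32, and within row 2 (2 pools against 1) it was 0.53. DOX minus CTRL was 0.27 in row 1 (2 pools against 1) and 0.14 in row 2 (1 against 1). IMB minus DOX was 0.04 in row 1 (1 against 2) and 0.40 in row 2 (2 against 1). The level of miR-125a-3p correlated with brightness at r = 0.04 and with the red cell index at r = 0.46 over the 8 arrays. The summed scaled signal of a list of 4 muscle miRNAs was also higher in every treated pool than in both control pools. It was 97.2 to 1116 in IMB pools, 112 to 314 in DOX pools and 55.1 to 60.8 in CTRL pools. The lists read for red cells, other blood cells, endothelium, epithelium, mesenchyme and liver did not have this order. Of the muscle list 2 miRNAs were detected on all arrays and miR-206-3p on 0. Among IMB pools its miR-1a-3p, miR-133a-3p and miR-133b-3p were highest in pool 2 and lowest in pool 3. miR-1a-3p was at 9.01 and 5.15 there, and miR-125a-3p was highest in IMB pool 3, at 6.67. Among DOX pools these muscle miRNAs and miR-125a-3p were all highest in pool 1, with miR-1a-3p at 7.01 and miR-125a-3p at 6.38. In both CTRL pools miR-1a-3p was at the floor. The part of the muscle list in the values of miR-125a-3p was not tested.

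**Figure D3:**
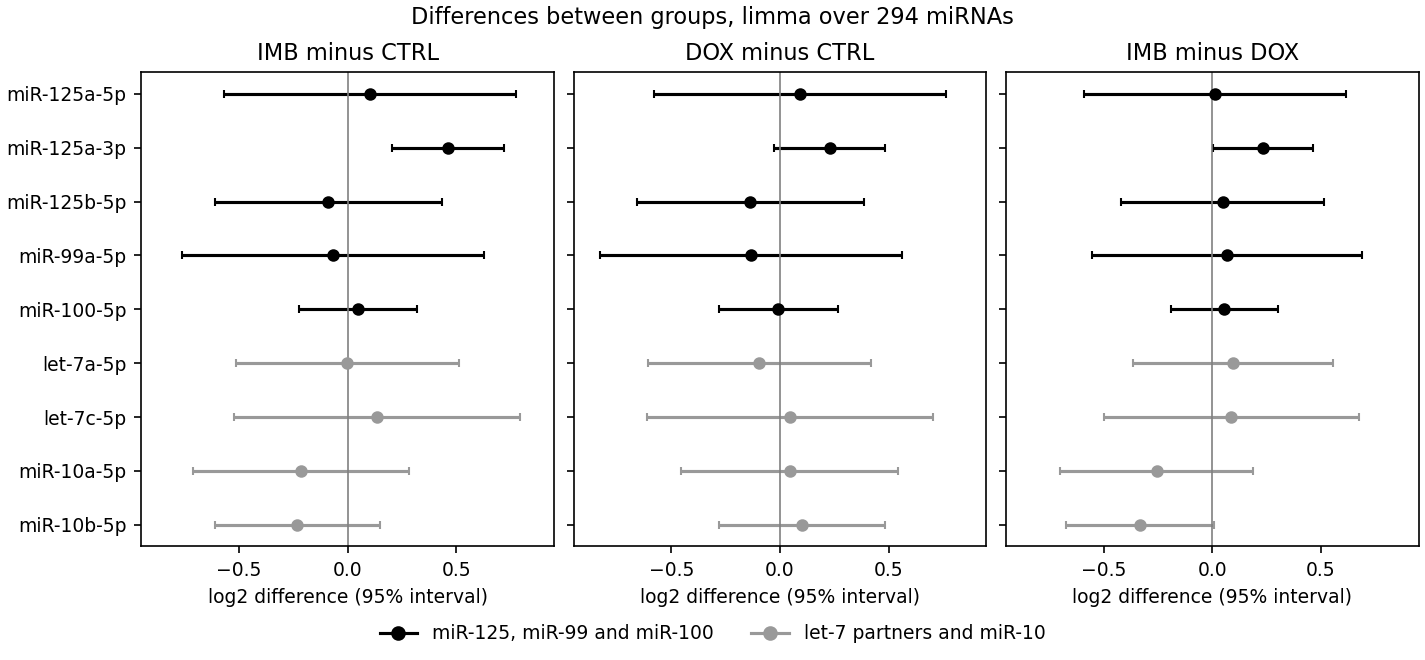
Points are log2 differences between groups and bars their 95% intervals from limma, for the 5 tested members (black) and for let-7 miRNAs of the same clusters and the miR-10 pair (grey). The interval of miR-125a-3p lies above 0 in IMB minus CTRL (0.20 to 0.72), and no difference shown passed after adjustment over all miRNAs.

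miR-125a-5p, the arm with the miR-125 seed, differed widely between the IMB pools. Its level was 5.21, 5.95 and 6.12 in the IMB pools, 5.84, 5.66 and 5.75 in the DOX pools, and 5.60 and 5.72 in the CTRL pools. IMB pool 1 was the lowest of all 8 pools and IMB pool 3 the highest, so the groups overlapped. IMB minus CTRL was 0.10 (SE 0.27, 95% interval -0.57 to 0.78, limma adjusted p = 0.985) and DOX minus CTRL 0.09 (SE 0.27, 95% interval -0.58 to 0.77, limma adjusted p = 1). IMB minus DOX was 0.01 (SE 0.24, 95% interval -0.59 to 0.61, limma adjusted p = 1). These intervals leave room for a change in either direction of about the size seen for the opposite arm.

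The 2 arms of miR-125a come from 1 hairpin and can be compared within an array, where the scaling between arrays cancels. The level of a probe depends on its sequence, so only changes of the difference between arrays are read. The difference of 5p minus 3p was -1.15, -0.53 and -0.56 in the IMB pools, -0.54, -0.59 and -0.44 in the DOX pools, and -0.45 and -0.33 in the CTRL pools. Each IMB pool was below both CTRL pools, and IMB pool 1 was the lowest of all.

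On average the difference of the arms was -0.75 ± 0.35 (SD, n = 3) in IMB pools, -0.53 ± 0.08 (SD, n = 3) in DOX pools and -0.39 ± 0.09 (SD, n = 2) in CTRL pools. IMB minus CTRL was -0.36 (2-sided exact permutation p = 0.3), DOX minus CTRL -0.14 (exact permutation p = 0.3) and IMB minus DOX -0.22 (exact permutation p = 0.5). The smallest p these designs allow is 0.1, and over the 6 tests of this kind the adjusted p was 0.9, 0.9 and 1. Without IMB pool 1, IMB minus CTRL was -0.15 and IMB minus DOX -0.02. Over the 8 arrays the arms correlated at r = 0.49 (Spearman rho 0.64), and at r = 0.93 over the 7 arrays without IMB pool 1. Both arms share the scaling of their array.

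**Figure D4:**
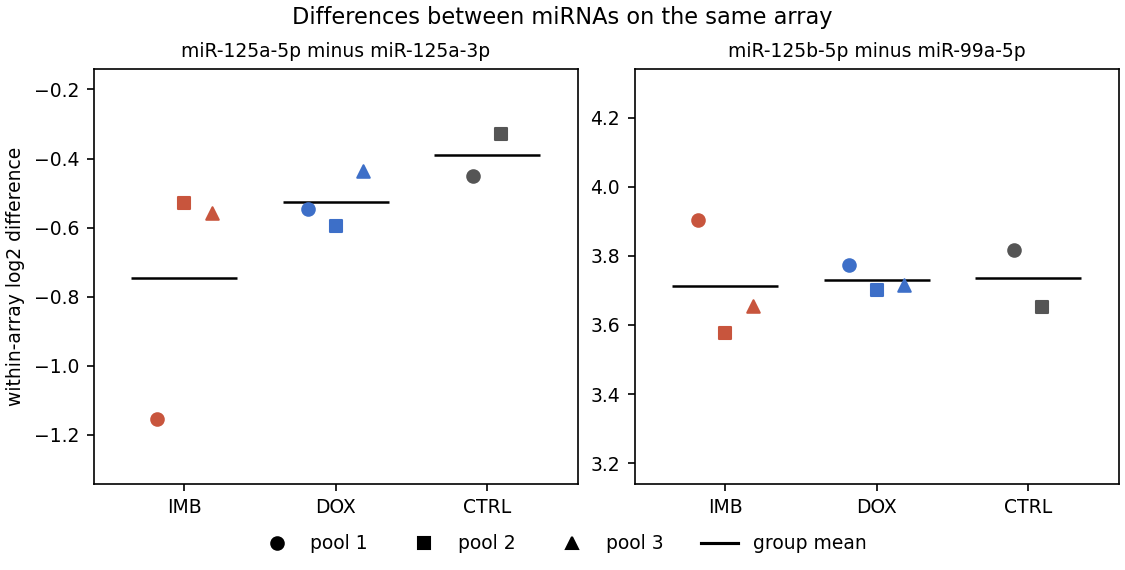
The left panel shows miR-125a-5p minus miR-125a-3p and the right panel miR-125b-5p minus miR-99a-5p, as log2 differences within each array, with symbols by pool and bars at group means; both panels have axes of the same length. IMB pool 1 is at -1.15 on the left, apart from the other pools at -0.59 to -0.33, and the right panel runs from 3.58 to 3.90.

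miR-125b-5p, which shares the seed of miR-125a-5p and comes from both wide clusters, was detected by both of its probes on all arrays. Its level was 8.40, 8.91 and 9.05 in the IMB pools, 8.78, 8.76 and 8.67 in the DOX pools, and 9.04 and 8.71 in the CTRL pools. Values spanned 0.65 log2 units in IMB pools, 0.11 in DOX pools and 0.34 in CTRL pools, and all groups overlapped. IMB minus CTRL was -0.09 (SE 0.21, 95% interval -0.61 to 0.43, limma adjusted p = 0.978). DOX minus CTRL was -0.14 (SE 0.21, 95% interval -0.66 to 0.39, limma adjusted p = 0.963). IMB minus DOX was 0.05 (SE 0.19, 95% interval -0.42 to 0.52, limma adjusted p = 1). Without IMB pool 1, IMB minus CTRL was 0.11, and without CTRL pool 1 it was 0.08.

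Before scaling, the total gene signal that the scanner software gives for miR-125b-5p was 99.6 to 395 in IMB pools, 141 to 164 in DOX pools and 238 to 287 in CTRL pools. The DOX pools lay below both CTRL pools on that scale, as they did for every other tested member, let-7a-5p, let-7c-5p and the miR-10 pair. Brightness before scaling had the same order, at 213 to 267 in DOX pools and 300 to 349 in CTRL pools. The share of all miRNAs with this order was not counted. From probe signals with no scaling between arrays, the median DOX minus CTRL difference of all miRNAs tested was -0.32. With no scaling DOX minus CTRL of miR-125b-5p was -0.56, or -0.24 relative to that median. The 2 probes of miR-125b-5p gave -0.02 and -0.16 for DOX minus CTRL, and 0.01 and -0.11 for IMB minus CTRL.

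miR-99a-5p, the miR-99 member of the chromosome 16 cluster, was detected in every pool by 1 of its 2 probes. Its level was 4.50, 5.33 and 5.39 in the IMB pools, 5.01, 5.06 and 4.95 in the DOX pools, and 5.22 and 5.05 in the CTRL pools. IMB pools 2 and 3 were above all other pools and IMB pool 1 below all of them, close to the floor. IMB minus CTRL was -0.07 (SE 0.28, 95% interval -0.76 to 0.63, limma adjusted p = 1) and DOX minus CTRL -0.13 (SE 0.28, 95% interval -0.83 to 0.56, limma adjusted p = 0.992). IMB minus DOX was 0.07 (SE 0.25, 95% interval -0.55 to 0.69, limma adjusted p = 0.999).

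miR-100-5p, which differs from miR-99a-5p by the single base at position 16, was near or at the floor in every pool. Its level was 4.68 and 4.76 in IMB pools 2 and 3, with IMB pool 1 at the floor, 4.55, 4.56 and 4.56 in the DOX pools, and 4.59 and 4.54 in the CTRL pools. IMB pools 2 and 3 were again above all other pools. IMB minus CTRL was 0.05 (SE 0.11, limma adjusted p = 0.978), DOX minus CTRL -0.01 (SE 0.11, limma adjusted p = 1) and IMB minus DOX 0.06 (SE 0.10, limma adjusted p = 0.964). These values take IMB pool 1 at the floor: with a floor 4 times lower, IMB minus CTRL was -0.23 and IMB minus DOX -0.22.

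The calls of these 2 miRNAs depended on IMB pool 1. Without it, miR-100-5p was higher in IMB than in CTRL pools by 0.17 (SE 0.02, limma adjusted p = 0.024, the lowest of a range up to 1 over its alternatives) and higher in IMB than in DOX pools by 0.17 (SE 0.02, limma adjusted p = 0.012, again the lowest, up to 1). miR-99a-5p was then higher in IMB than in DOX pools by 0.36 (SE 0.05, limma adjusted p = 0.038, again the lowest, up to 1), and differed from the CTRL pools by 0.23 (SE 0.06, limma adjusted p = 0.117). Calls also became more common among all miRNAs without that pool, at 3.55% of 310 for IMB minus CTRL and 5.16% for IMB minus DOX. The levels of miR-100-5p behind these calls were near the floor.

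IMB pool 1 was low against its neighbours in the same row of the slide. Within row 1, where it is the only IMB pool, IMB minus CTRL was -0.39 for miR-125a-5p, -0.64 for miR-125b-5p and -0.73 for miR-99a-5p (1 pool against 1), and IMB minus DOX was -0.54, -0.37 and -0.54 for the same miRNAs (1 against 2). Within row 2 IMB minus CTRL was 0.32, 0.27 and 0.31 for the same miRNAs (2 pools against 1). Over the 8 arrays the level of miR-99a-5p correlated with the brightness before scaling at r = 0.78, that of miR-125a-5p and of miR-125b-5p at r = 0.61. IMB pool 1 was also the dimmest array, and the part of brightness in its low values was not tested.

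miR-99b-5p, the partner of miR-125a in the tight cluster, was at the floor on all 8 arrays, and no difference is given. Its 2 probes had scaled signals of -1.29 to 3.60 and 3.76 to 11.0, and neither was well above background on any array. The members with the miR-99 seed were thus detected on 8 (miR-99a-5p), 7 (miR-100-5p) and 0 (miR-99b-5p) arrays, and both 5p arms with the miR-125 seed on all 8. Levels are not compared between members, since each has its own probes.

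**Figure D5:**
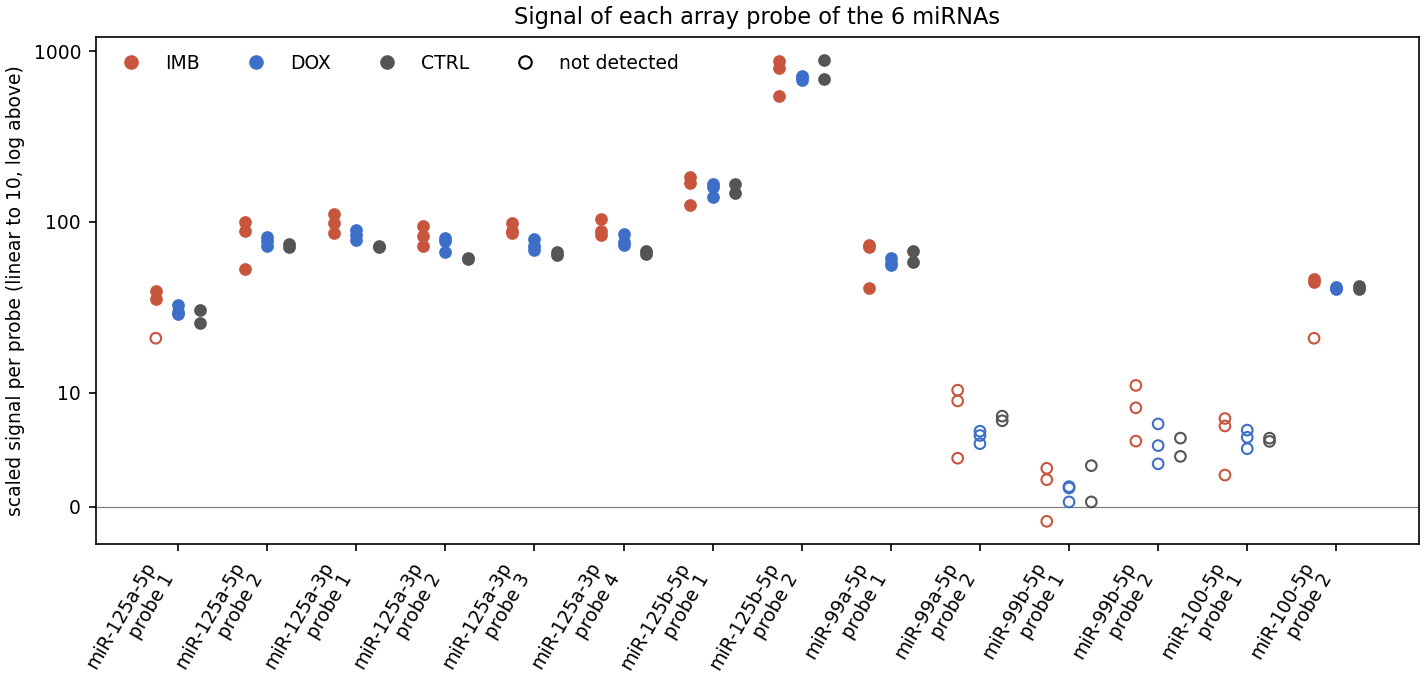
Each column is 1 array probe of the 6 miRNAs, with the scaled signal of each pool coloured by group; the axis is linear up to 10 and logarithmic above, and open points were not well above background. All 4 probes of miR-125a-3p are above background in every pool, while 1 probe each of miR-99a-5p and miR-100-5p and both of miR-99b-5p are open in every pool.

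Of the 2 probes of miR-99a-5p, 1 was detected on all 8 arrays at 40.9 to 73.5 scaled signal and the other on 0 arrays at 4.25 to 10.4. Of those of miR-100-5p, 1 was detected on 7 arrays at 20.8 to 46.6 and the other on 0 at 2.77 to 7.74. The level of each miRNA is the mean of its probes, which the dim probe lowers on every array. With the brightest probe alone, IMB minus CTRL of miR-100-5p was -0.24 and IMB minus DOX -0.23.

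miR-125b-5p and miR-99a-5p, which share a cluster, varied together across pools. Within an array their difference was 3.90, 3.58 and 3.65 in the IMB pools, 3.77, 3.70 and 3.72 in the DOX pools, and 3.82 and 3.65 in the CTRL pools, with a mean of 3.72 ± 0.10 over all 8. The group means differed by -0.02 for IMB minus CTRL (2-sided exact permutation p = 1), by -0.00432 for DOX minus CTRL (exact permutation p = 1) and by -0.02 for IMB minus DOX (exact permutation p = 0.9); each adjusted p was 1. The correlation of their levels was r = 0.94 (Spearman rho 0.90) over the 8 arrays and r = 0.88 without IMB pool 1. miR-125b-5p is also made from the miR-100 cluster, and all miRNAs of an array share its scaling, so the share of their common cluster in this likeness cannot be told apart. miR-125b-5p was not set against miR-100-5p in this way, since miR-100-5p was at the floor in IMB pool 1.

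Likeness was read against 226 other tested miRNAs with no value at the floor. Those with the highest correlation to miR-99a-5p over the 8 arrays were let-7a-5p (r = 0.95), let-7b-5p (r = 0.95) and let-7c-5p (r = 0.94). The same 3 were closest to miR-125b-5p, with r of 0.89 for let-7b-5p, 0.88 for let-7c-5p and 0.87 for let-7a-5p. Without IMB pool 1 they were 0.89 to 0.92 for miR-99a-5p and 0.71 to 0.77 for miR-125b-5p. let-7c-5p and let-7a-5p are made from the clusters of these members and from other hairpins, and let-7b-5p is not made from them. miR-125a-5p was closest to miR-712-5p (r = 0.95), miR-6394 (r = 0.93) and miR-3474 (r = 0.90). miR-125a-3p was closest to miR-7058-5p (r = 0.87), miR-5100 (r = 0.87) and miR-3968 (r = 0.85). Members were left out of these lists, so neither arm could appear in that of the other. Without IMB pool 1 these r were 0.86 to 0.90 for miR-125a-5p and 0.87 to 0.89 for miR-125a-3p. The 2 arms then correlated with each other at r = 0.93.

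The let-7 partners of the clusters also gave no call. let-7a-5p differed by -0.000816 for IMB minus CTRL (SE 0.21, limma adjusted p = 1) and by -0.10 for DOX minus CTRL (SE 0.21, limma adjusted p = 0.992). let-7c-5p differed by 0.13 for IMB minus CTRL (SE 0.26, limma adjusted p = 0.974) and by 0.05 for DOX minus CTRL (SE 0.26, limma adjusted p = 1). let-7e-5p, which lies between Mir99b and Mir125a, was detected on 3 arrays, and on 6 by the scanner software, and was not tested. The opposite arms of the other hairpins that are on the array under these names, 8 in all, were detected on 0 arrays: miR-99a-3p, miR-99b-3p, miR-100-3p, miR-125b-1-3p, miR-125b-2-3p, let-7a-2-3p, let-7c-1-3p and let-7e-3p. miR-125a was therefore the only hairpin of the 3 clusters with both arms detected among those measured. miR-351-5p, which carries the miR-125 seed, was also detected on 0 arrays.

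The miR-10 pair is related in sequence to miR-99 and miR-100 but has the seed ACCCUGU. miR-10b-5p averaged 6.40 ± 0.13 (SD, n = 3) in IMB pools, 6.73 ± 0.23 (SD, n = 3) in DOX pools and 6.63 ± 0.14 (SD, n = 2) in CTRL pools. IMB minus CTRL was -0.23 (SE 0.15, limma adjusted p = 0.758), with every IMB pool below both CTRL pools, as for 6.80% of all tested miRNAs, and IMB minus DOX was -0.33 (SE 0.14, limma adjusted p = 0.407). miR-10a-5p was at -0.21 (SE 0.20, limma adjusted p = 0.866) for IMB minus CTRL and at -0.26 (SE 0.18, limma adjusted p = 0.682) for IMB minus DOX. Neither passed. In IMB minus DOX both were below 0 while the 5 members tested were above 0, where 41.5% of all miRNAs tested were above 0. Members other than miR-125a-3p were at 0.01 to 0.07 there (SE 0.10 to 0.25), and each turned direction under some alternative or left-out pool. The difference between the miR-10 pair and the members was not tested.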

How the data were processed

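Plasma RNA (3.1 µl from 300 µl of plasma per pool) was labelled with Cy3 and hybridised to one-colour Agilent miRNA arrays. The intensity of each spot, on a linear scale, comes from the deposited scanner output. Per the submitters' processing notes, images were read by Agilent Feature Extraction 11.5.1.1; background was subtracted, per the file headers. The authors' deposited table holds log2 values, with processing not given in the sources used here, and served as an alternative.

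Processed signals of non-outlier spots were averaged per probe and scaled to each array's 75th percentile over 454 probes that every array detected. A miRNA's probes were averaged linearly. Values under 20.9, set from the 1st percentile of detected probes on each array (median of 8), were raised to it before log2 was taken. Members have 7 to 15 spots per probe. Groups were compared with limma 3.58.1 in R 4.3.3 (lmFit, eBayes, 2-sided) on all 8 arrays, with 5 residual degrees of freedom. The number of arrays limits the precision. The limma step alone was tested on simulated log2 values, with planted changes of 1 and 2 log2 units, larger than any member's difference. It recovered 83.3% and 96.7% of these, with 4 false calls among 58. Changes were planted in 60 of 294 miRNAs, while these data gave 1 to 3 calls per comparison. The adjustment is laxer where many miRNAs change, so these shares do not give the recovery to be had here. Within-array differences were compared by exact permutation. The labels call the pools biological replicates.

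The members, lists, tests and alternatives were chosen with earlier results of these data known. The text names the 6 members, the other arms and let-7 partners of their hairpins, the seed relatives (let-7c-1-3p was added later, in place of let-7c-2-3p of another hairpin) and, per member detected on all arrays, the 3 miRNAs with the highest Pearson r. Sequences and coordinates come from RefSeq (GRCm38.p6). Figures were drawn with matplotlib 3.10.9.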

Additional observations from a re-analysis of the deposited data

How the results depend on the processing

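Of 342 differences recomputed for the members over 15 alternatives and 8 left-out pools, 299 kept their direction and side of the threshold, 40 turned direction, 3 gained a call and 0 lost one; those that turned belong to differences that had not passed, and the cause was not tested. Members called stayed at 0 under all 15 alternatives in each comparison, and at 0 in DOX minus CTRL with any pool left out. Without IMB pool 1 they numbered 1 in IMB minus CTRL and 2 in IMB minus DOX, and 0 without any other pool. miR-125a-3p kept its direction in IMB minus CTRL and IMB minus DOX under all of these.

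For all miRNAs, DOX minus CTRL gave 1 call, and 2 with Agilent's total gene signal, the percentile over all probes or a floor 4 times lower, 0 with no filter or only the compared groups in the fit, 3 with the authors' deposited table, and 0 to 4 with a pool left out. IMB minus CTRL gave 3, and 1 with Agilent's signal, median scaling or the lower floor, 0 with no scaling, no filter or the percentile over all probes, and 1 to 11 with a pool left out. IMB minus DOX gave 3, and 5 with Agilent's signal, the lower floor or the authors' deposited table, 6 with the mean of log2 over probes, and 3 to 16 with a pool left out (16 and 11 without IMB pool 1). No pairing of the pools by replicate number was seen: same-numbered pools correlated at -0.24 to 0.40 and differently numbered ones at -0.46 to 0.47. This check has little power, since with 2 CTRL pools the correlation with 1 is the reverse of that with the other. With the replicate block, DOX minus CTRL gave 0 calls, IMB minus CTRL 2 and IMB minus DOX 4, with 0 members among them.

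With no scaling, DOX minus CTRL was -0.33 for miR-125a-5p and -0.19 for miR-125a-3p, and IMB minus CTRL -0.0112 for miR-125a-5p; the median of all tested moved to -0.32 for DOX minus CTRL and 0.23 for IMB minus DOX. With normexp, where that median was 0.11 for DOX minus CTRL, DOX minus CTRL was 0.16 for miR-99a-5p and 0.17 for miR-100-5p, IMB minus CTRL 0.0794 for miR-99a-5p, and IMB minus DOX -0.0547 for miR-125a-5p, -0.0807 for miR-99a-5p and -0.10 for miR-100-5p. With the slide row as a block, DOX minus CTRL was 0.0104 for miR-100-5p, and IMB minus DOX -0.10 for miR-125a-5p and -0.0130 for miR-99a-5p. With the percentile over all probes, IMB minus CTRL of miR-99a-5p was 0.00292. With the authors' deposited table, DOX minus CTRL of miR-125a-5p was -0.000418 and IMB minus DOX of miR-125b-5p -0.0178. With Agilent's signal, IMB minus DOX of miR-125a-5p was -0.0183.

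miR-100-5p, with IMB pool 1 at the floor, turned in IMB minus CTRL and IMB minus DOX with Agilent's signal (-0.29 and -0.26), the lower floor (-0.23 and -0.22), the brightest probe alone (-0.24 and -0.23), the mean of log2 over probes (-0.12 and -0.11) and the authors' deposited table (-0.24 and -0.21). The difference of miR-125b-5p and miR-99a-5p within an array was 0.12 for DOX minus CTRL in the authors' deposited table, and for IMB minus DOX 0.15 with normexp, 0.0104 with the brightest probe and 0.0192 with the mean of log2. Over the alternatives its DOX minus CTRL was -0.30 to 0.12. Its lowest unadjusted exact permutation p was 0.1 for DOX minus CTRL and for IMB minus DOX. With normexp, miR-125a-5p minus miR-125a-3p was -0.17 for IMB minus CTRL and -0.11 for IMB minus DOX. Each had an unadjusted exact permutation p of 0.1, the smallest these designs allow.

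Leaving out each pool in turn gave, for DOX minus CTRL, 0.0329 to 0.15 for miR-125a-5p, -0.22 to -0.0471 for miR-99a-5p, -0.31 to 0.0319 for miR-125b-5p and -0.0299 to 0.0151 for miR-100-5p. For IMB minus CTRL it gave -0.0750 to 0.39 for miR-125a-5p, -0.26 to 0.11 for miR-125b-5p, -0.22 to 0.23 for miR-99a-5p and 0.0139 to 0.17 for miR-100-5p. For IMB minus DOX it gave -0.17 to 0.29 for miR-125a-5p, -0.0820 to 0.25 for miR-125b-5p, -0.0917 to 0.36 for miR-99a-5p and 0.0173 to 0.17 for miR-100-5p. Within arrays, miR-125a-5p minus miR-125a-3p lay between -0.20 and -0.0740 for DOX minus CTRL, between -0.47 and -0.15 for IMB minus CTRL, and between -0.33 and -0.0185 for IMB minus DOX. There, miR-125b-5p minus miR-99a-5p lay between -0.0876 and 0.0790 for DOX minus CTRL, between -0.12 and 0.0601 for IMB minus CTRL, and between -0.11 and 0.0485 for IMB minus DOX. Where a left-out pool leaves 1 CTRL pool, that pool is assumed to vary like the other groups. Signal over background limits miR-99b-5p and miR-100-5p.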
